A study of Mus musculus with 18 samples.

Results

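Transcripts of 10 CC chemokines, *Ccl2*, *Ccl3*, *Ccl4*, *Ccl5*, *Ccl6*, *Ccl7*, *Ccl8*, *Ccl9*, *Ccl12* and *Ccl24*, were followed across macrophage populations sorted from the inflamed mouse lung. They were taken by symbol from a table of 21254 genes, and the 10 of 10 passed the filter on low counts that left 15811 genes for testing. Bulk RNA-seq libraries had been made from moMs (CD45+CD11b+MHC-II-Ly6C+ monocyte-derived cells), tnsIMs (transitional interstitial macrophages, MHC-II+Ly6C+, named trIM in the labels) and matIMs (mature interstitial macrophages, MHC-II+Ly6C-). Each population came from WT and *Ezr*-KOm lungs with 3 libraries a group, 18 in all, and the study states 3 mice per genotype. Every mouse had been nebulized for 15 min with Pseudomonas aeruginosa LPS (12.5 mg in 5 ml PBS) 24 h before sorting and was 3 to 5 months old, on a C57BL/6 background. *Ezr*-KOm mice carried Ez fl/fl, floxed alleles of the ezrin gene, with Cx3cr1tm1.1(cre)Jung/J, which puts Cre recombinase under the fractalkine receptor gene. The WT controls carried the same Cre without floxed *Ezr*, so all 6 groups share *Cx3cr1*-Cre and LPS, and no unexposed lung was compared here. Deletion by this Cre reaches only cells that express *Cx3cr1* or descend from cells that did.

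CC chemokines are small secreted proteins that attract leukocytes through G protein-coupled receptors of the Ccr family. In macrophages, LPS sensed by *Tlr4* with *Cd14* and *Ly96* induces many of them through *Myd88*, *Ticam1* and NF-kappaB. *Ccl2*, *Ccl7* and *Ccl12* bind *Ccr2* and draw Ly6C+ monocytes out of bone marrow and blood, *Ccl3* and *Ccl5* bind *Ccr1*, and *Ccl24* binds *Ccr3*, the receptor that recruits eosinophils.

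Levels are given as CPM, counts per 1000000 of the TMM-scaled library size. *Ezr* transcripts, the check of the knockout, were at 497 to 593 CPM in WT moMs, 515 to 679 CPM in tnsIMs of that genotype and 611 to 741 CPM in its matIMs, against 160.0 to 282, 126 to 234 and 93.8 to 167 CPM in the *Ezr*-KOm groups. The WT and *Ezr*-KOm ranges did not overlap in any population. The difference was -1.20 ± 0.24, -1.62 ± 0.24 and -2.29 ± 0.25 on the log2 scale (± SE), with adjusted p = 0.0549, 0.00365 and 7.73e-05 by edgeR's quasi-likelihood test. Libraries held 16512783 to 48460995 counts, and the deepest was *Ezr*-KOm tnsIM replicate 2. Between moMs and matIMs the sort gate showed in the RNA, since *H2-Aa* ranged from 414 to 647 CPM in WT moMs and from 5689 to 7307 CPM in WT matIMs, and *Ly6c2* from 470 to 488 CPM and from 33.1 to 69.1 CPM. In WT tnsIMs against WT moMs, 3 of 4 genes of the gate (*Ly6c2*, *H2-Aa*, *H2-Ab1* and *Cd74*) were higher and 1 lower at adjusted p under 0.05. Of all genes 13% were higher and 8.61% lower. In *Ezr*-KOm 3 were higher and 0 lower, against 9.23% and 5.04%. In bulk libraries of sorted cells, fewer cells that make a transcript and less transcript per cell cannot be told apart.

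Of the 10 genes, 9 lie on chromosome 11 in 2 clusters (build GRCm39, as the deposited table gives it). The first, on the plus strand, holds *Ccl2* (ENSMUSG00000035385, 81926397 to 81928279), *Ccl7* (ENSMUSG00000035373, 81936538 to 81938351), *Ccl12* (ENSMUSG00000035352, 81992671 to 81994226) and *Ccl8* (ENSMUSG00000009185, 82006011 to 82007625). The second holds *Ccl5* (ENSMUSG00000035042, 83416604 to 83421344), *Ccl9* (ENSMUSG00000019122, 83463745 to 83469462), *Ccl6* (ENSMUSG00000018927, 83478708 to 83483913) and *Ccl3* (ENSMUSG00000000982, 83538670 to 83540181) on the minus strand and *Ccl4* (ENSMUSG00000018930, 83553410 to 83555509) on the plus strand. On chromosome 5 lies *Ccl24* (ENSMUSG00000004814, 135598791 to 135601903), on the minus strand. The promoter table of RefSeq (build GRCm38.p6) held 5 of the 10, namely *Ccl12*, *Ccl8*, *Ccl9*, *Ccl6* and *Ccl3*. The 120 bases before the start of 4 of them, from 5′ to 3′ on the gene's strand, are shown because *Ccl12* and *Ccl8* are neighbours that differed in opposite directions between populations, and *Ccl9* and *Ccl3* hold the matches to motifs of inflammatory factors, with matches to the motifs searched in capitals.
Ccl12: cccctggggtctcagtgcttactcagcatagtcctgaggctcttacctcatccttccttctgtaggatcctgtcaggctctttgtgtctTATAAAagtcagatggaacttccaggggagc
Ccl8: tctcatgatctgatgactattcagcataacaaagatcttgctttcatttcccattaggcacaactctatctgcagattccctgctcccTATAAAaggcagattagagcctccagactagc
Ccl9: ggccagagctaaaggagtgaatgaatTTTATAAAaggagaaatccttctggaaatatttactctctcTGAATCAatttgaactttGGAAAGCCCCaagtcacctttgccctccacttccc
Ccl3: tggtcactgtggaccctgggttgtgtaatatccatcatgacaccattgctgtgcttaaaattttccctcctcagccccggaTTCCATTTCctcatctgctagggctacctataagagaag
They stand at chr11:82101725-82101844 (plus), chr11:82115065-82115184 (plus), chr11:83578637-83578756 (minus) and chr11:83649379-83649498 (minus) of GRCm38.p6. The motifs were searched on both strands from 250 bases before to 50 bases after each start. TATAAA, the TATA box, occurred 31 bases before the start of *Ccl12* and 32 bases before that of *Ccl8*, and 13.6% of the 32851 promoters held it. *Ccl9* held it at 3 places, 92, 94 and 224 bases before the start, the first 2 overlapping on opposite strands. It also held the AP-1 letters TGANTCA at 53 bases (7.81% of all promoters) and the NF-kappaB consensus on the opposite strand at 35 bases (8.46%). *Ccl3* held GAAANNGAA, the core of an interferon-stimulated response element, on the opposite strand at 39 bases (8.56%). The STAT letters TTCNNNGAA (8.30% of all promoters) were in none of the 5 windows, and the window of *Ccl6* held none of the motifs searched.

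Per kilobase of merged exons, so that genes can be set side by side, *Ccl4* had the highest level in each of the 6 groups, from 1377 CPM per kb in WT matIMs to 2697 CPM per kb in *Ezr*-KOm tnsIMs. In WT moMs *Ccl2* (1289.6 CPM per kb), *Ccl6* (1036), *Ccl7* (968) and *Ccl3* (934) followed it. *Ccl12* (337 CPM per kb) and *Ccl9* (246) were lower, *Ccl5* (51.5) and *Ccl24* (39.1) lower still, and *Ccl8* (3.85) lowest. In WT matIMs the order was *Ccl4*, *Ccl3* (777 CPM per kb), *Ccl5* (531), *Ccl2* (492), *Ccl7* (476), *Ccl6* (423), *Ccl12* (178), *Ccl9* (156), *Ccl8* (22.1) and *Ccl24* (8.43). That order depends on the length used. The longest transcript has 668 bases for *Ccl5*, against 1027 merged, and 1440 for *Ccl6*, against 1818. With the longest transcripts *Ccl5* would stand above *Ccl3* there, and *Ccl6* above *Ccl2* and *Ccl7*. Summed over the 10 genes, the WT level was 7135 ± 1487 CPM (SD, n = 3) for moMs, 7697 ± 1808 for tnsIMs and 4458 ± 1059.7 for matIMs, and the ranges of WT tnsIMs (5637 to 9024 CPM) and WT matIMs (3237 to 5133 CPM) did not overlap.

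**Figure D1:**
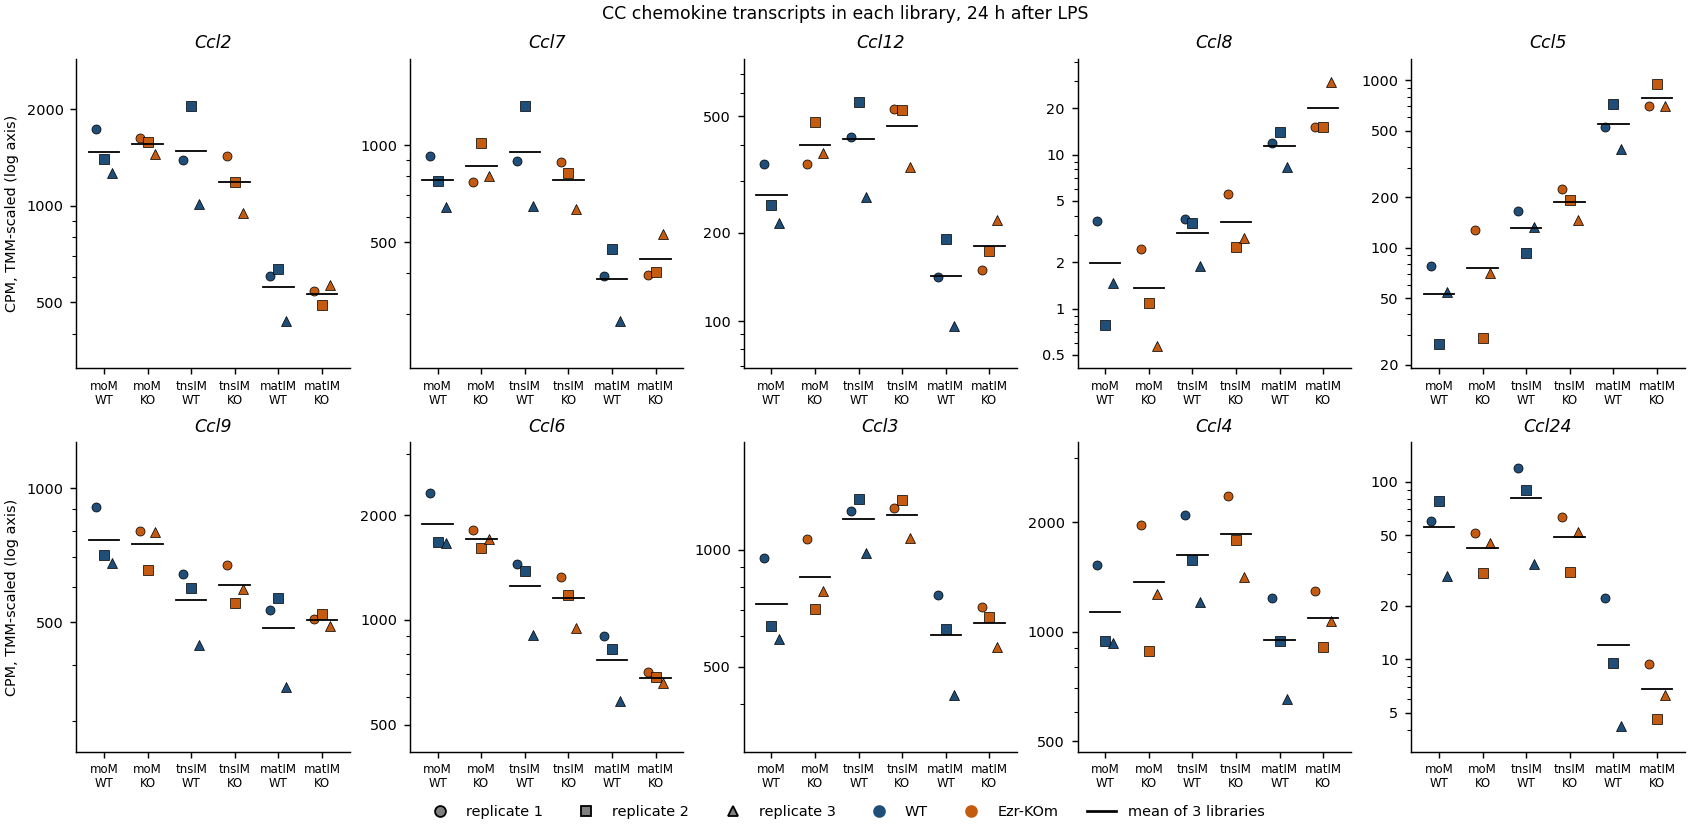
Each panel plots the TMM-scaled CPM of 1 chemokine gene on a log axis for the 18 libraries, with WT in blue and *Ezr*-KOm in orange, a marker shape for each replicate number and a bar at the mean of 3 libraries. *Ccl5* and *Ccl8* are highest in matIMs, *Ccl24* lowest there, and *Ccl3*, *Ccl4*, *Ccl12* and *Ccl24* have their highest means in tnsIMs within each genotype.

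The first set of comparisons asked how the chemokines differed between the populations within a genotype. From moMs to tnsIMs few members passed the test. In WT, 2 of 10 were higher in tnsIMs (*Ccl3* and *Ccl5*), against 13% of all genes tested, and 1 of 10 was lower (*Ccl6*), against 8.61%. In *Ezr*-KOm, 1 of 10 was higher (*Ccl5*), against 9.23%, and 0 of 10 were lower by edgeR or DESeq2, against 5.04%. At an unadjusted p under 0.05, 4 of 10 passed there, 1 lower (*Ccl6*) and 3 higher (*Ccl3*, *Ccl5* and *Ccl8*), against 26.8% of all genes in either direction. From tnsIMs to matIMs more of them passed. In WT, 6 of 10 were lower in matIMs (*Ccl2*, *Ccl3*, *Ccl6*, *Ccl7*, *Ccl12* and *Ccl24*), against 10.2% of all genes, and 2 of 10 were higher (*Ccl5* and *Ccl8*), against 8.32%. In *Ezr*-KOm the same 6 genes were lower, against 9.85%, and the same 2 higher, against 8.37%. Over the whole span from moMs to matIMs, 6 of 10 were lower in WT (*Ccl2*, *Ccl6*, *Ccl7*, *Ccl9*, *Ccl12* and *Ccl24*), against 11.4%, and 2 of 10 were higher (*Ccl5* and *Ccl8*), against 13.4%. In *Ezr*-KOm the same 6 were lower, against 10.7%, and the same 2 higher, against 12.5%.

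The median log2 difference of the 10 genes was 0.53 from moMs to tnsIMs, -0.88 from tnsIMs to matIMs and -0.79 from moMs to matIMs in WT. Over all genes tested the medians were 0.015, 0.037 and 0.013. In *Ezr*-KOm the members' medians were 0.21, -0.79 and -0.76, beside 0.0086, 0.015 and 0.0067 over all genes. These comparisons share libraries with each other within a genotype, while those in WT and in *Ezr*-KOm rest on separate libraries. Libraries of the same number still deviated together across the genotypes of a population (r = 0.10 to 0.32). Agreement between the genotypes is therefore not fully independent. The replicate numbers paired the libraries of tnsIMs with those of moMs and of matIMs. With the replicate number as a block, 5 of 10 members passed from moMs to tnsIMs in WT (*Ccl4*, adjusted p = 0.0227, and *Ccl9*, adjusted p = 0.028, in addition) and 4 of 10 in *Ezr*-KOm (*Ccl3*, 0.0135, *Ccl6*, 0.00511, and *Ccl8*, 0.0398, in addition). Under that block 4572 and 3185 of all genes passed in these 2 comparisons, against 3411 and 2257 without it. From tnsIMs to matIMs the block added *Ccl4*, with adjusted p = 0.00173 in WT and 0.00259 in *Ezr*-KOm.

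**Figure D2:**
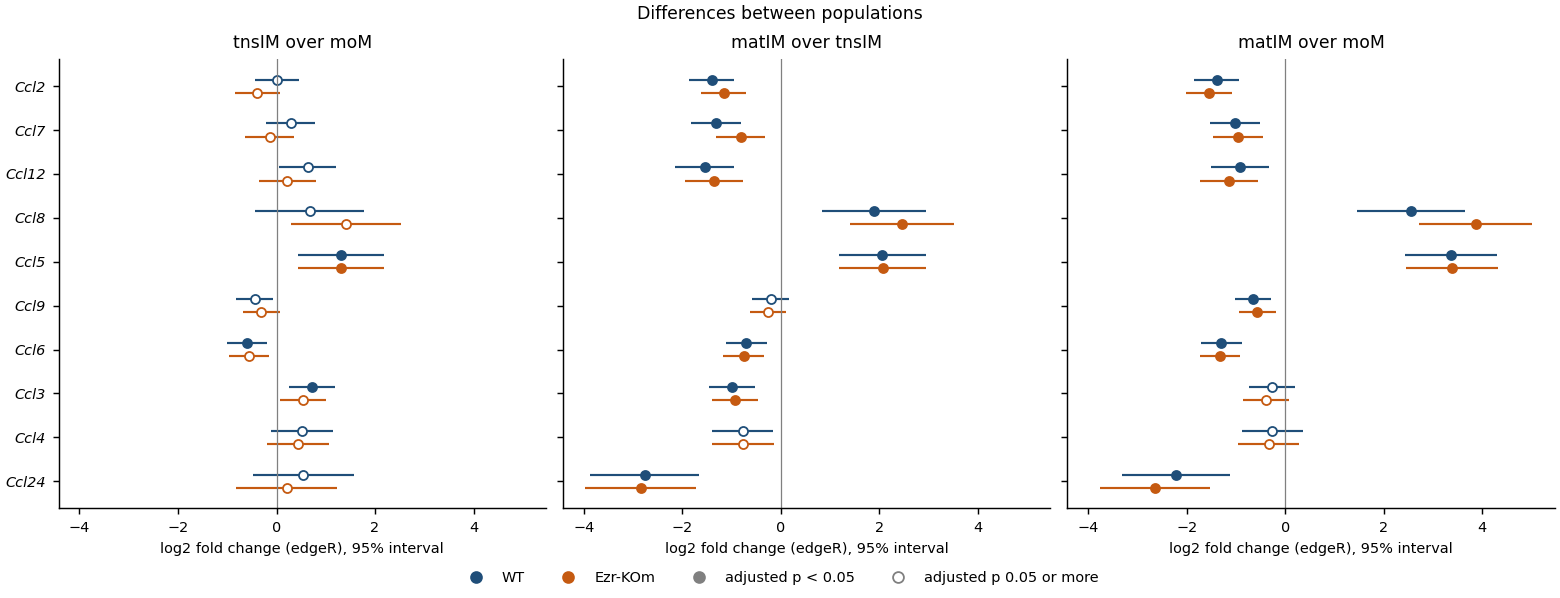
Log2 fold changes (edgeR) of the 10 genes with 95% intervals for tnsIM over moM, matIM over tnsIM and matIM over moM, in WT (blue) and *Ezr*-KOm (orange). Filled points have an adjusted p under 0.05. In the matIM over moM panel *Ccl5* lies at 3.37 and 3.38, and *Ccl24* at -2.22 and -2.65.

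The ligands of *Ccr2* were abundant in moMs and tnsIMs and lower in matIMs. *Ccl2*, the main attractant of Ly6C+ monocytes, was at 1734, 1399 and 1269 CPM in the 3 WT moM libraries (replicates 1 to 3, here and below), at 1386, 2048 and 1016 CPM in tnsIMs and at 605, 637 and 436 CPM in matIMs. The *Ezr*-KOm libraries held 1631, 1580.5 and 1449 CPM in moMs, 1428, 1183 and 949 CPM in tnsIMs and 541, 491 and 566 CPM in matIMs. Every matIM library was below every moM and tnsIM library in both genotypes, while moMs and tnsIMs overlapped in WT. Between tnsIMs and matIMs *Ccl2* fell 2.65-fold in WT (-1.41 ± 0.22, log2 ± SE, adjusted p = 0.000126) and 2.23-fold in *Ezr*-KOm (-1.16 ± 0.22, adjusted p = 0.000789). Between moMs and tnsIMs the log2 difference was 0.015 in WT and -0.39 in *Ezr*-KOm, with adjusted p = 0.971 and 0.267.

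*Ccl12*, a second ligand of *Ccr2* found in mice, was at 345, 249.6 and 217 CPM in moMs, 427, 561 and 266 CPM in tnsIMs and 141, 191 and 96.5 CPM in matIMs of WT lungs. *Ezr*-KOm lungs had 344, 478 and 375 CPM in moMs, 530.5, 524 and 335 CPM in tnsIMs and 149, 173 and 221 CPM in matIMs. Its highest libraries were in tnsIMs and its lowest in matIMs, and matIMs overlapped neither of the other populations within a genotype. *Ccl12* fell from tnsIMs to matIMs by 1.55 ± 0.28 on the log2 scale in WT (adjusted p = 0.000567) and by 1.36 ± 0.28 in *Ezr*-KOm (adjusted p = 0.00176). From moMs to matIMs it fell by 0.92 ± 0.28 in WT (adjusted p = 0.0204) and by 1.14 ± 0.28 in *Ezr*-KOm (adjusted p = 0.00523). The WT call from moMs to matIMs was lost without WT matIM replicate 1 (adjusted p = 0.0531), WT matIM replicate 3 (adjusted p = 0.0937) or WT moM replicate 1 (adjusted p = 0.0988).

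*Ccl7*, which also binds *Ccr2*, was at 923, 776 and 644 CPM in moMs, 889.9, 1322 and 648 CPM in tnsIMs and 392, 476 and 284 CPM in matIMs of WT lungs. With *Ezr* deleted it was at 769, 1013 and 804 CPM in moMs, 887, 822 and 634 CPM in tnsIMs and 395, 404 and 531 CPM in matIMs. The matIM libraries were again below all libraries of the other populations. From tnsIMs to matIMs *Ccl7* fell by 1.31 ± 0.24 (log2 ± SE) in WT (adjusted p = 0.000608) and by 0.82 ± 0.24 in *Ezr*-KOm (adjusted p = 0.0205). The *Ezr*-KOm call was lost without *Ezr*-KOm matIM replicate 1 (adjusted p = 0.0723), *Ezr*-KOm matIM replicate 2 (adjusted p = 0.0819), *Ezr*-KOm tnsIM replicate 1 (adjusted p = 0.0798) or *Ezr*-KOm tnsIM replicate 2 (adjusted p = 0.0617). From moMs to matIMs it fell 2.03-fold in WT (adjusted p = 0.00352) and 1.94-fold in *Ezr*-KOm (adjusted p = 0.00594), and these calls held without each library in turn.

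*Ccl5* and *Ccl8* were the 2 members that were higher in matIMs than in moMs and tnsIMs. *Ccl5* attracts T cells, NK cells, monocytes and eosinophils. In WT it was at 77.9, 26.6 and 54.2 CPM in moMs, 165, 93.3 and 133 CPM in tnsIMs and 527, 721 and 387 CPM in matIMs. *Ezr*-KOm mice had 127, 28.96 and 71.00 CPM in moMs, 225, 194 and 146 CPM in tnsIMs and 701, 957 and 707 CPM in matIMs. The 3 populations did not overlap in either genotype, and the spread within moMs was wide, with replicate 2 lowest in both genotypes. *Ccl5* was 10.3-fold higher in matIMs than in moMs in WT (3.37 ± 0.45, adjusted p = 1.58e-05) and 10.4-fold higher in *Ezr*-KOm (3.38 ± 0.45, adjusted p = 1.56e-05). From tnsIMs to matIMs it rose 4.18-fold in WT (adjusted p = 0.00158) and 4.19-fold in *Ezr*-KOm (adjusted p = 0.00158). From moMs to tnsIMs it rose 2.47-fold in WT (1.31 ± 0.42, adjusted p = 0.031) and 2.48-fold in *Ezr*-KOm (1.31 ± 0.41, adjusted p = 0.0396). The call from moMs to tnsIMs was lost in WT without WT moM replicate 2 (adjusted p = 0.132), WT moM replicate 3 (adjusted p = 0.0815) or WT tnsIM replicate 1 (adjusted p = 0.112). The *Ezr*-KOm call was lost without *Ezr*-KOm moM replicate 2 (adjusted p = 0.13), *Ezr*-KOm moM replicate 3 (adjusted p = 0.127), *Ezr*-KOm tnsIM replicate 1 (adjusted p = 0.122) or *Ezr*-KOm tnsIM replicate 2 (adjusted p = 0.0952).

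*Ccl8*, a ligand of *Ccr8* in the mouse, had the fewest counts of the 10 genes, 13 to 65 per library in moMs and 224 to 710 in matIMs. It was at 3.70, 0.787 and 1.46 CPM in moMs, 3.80, 3.61 and 1.88 CPM in tnsIMs and 11.8, 13.97 and 8.35 CPM in matIMs of WT lungs. *Ezr*-KOm libraries had 2.44, 1.08 and 0.573 CPM in moMs, 5.57, 2.49 and 2.88 CPM in tnsIMs and 15.02, 15.00 and 29.8 CPM in matIMs. All matIM libraries were above all others, and in *Ezr*-KOm tnsIMs were also above moMs. *Ccl8* rose from tnsIMs to matIMs 3.69-fold in WT (1.88 ± 0.50, adjusted p = 0.012) and 5.50-fold in *Ezr*-KOm (2.46 ± 0.50, adjusted p = 0.00158). The WT call was lost without WT matIM replicate 2 (adjusted p = 0.054) or WT tnsIM replicate 3 (adjusted p = 0.0682). From moMs to matIMs it rose 5.89-fold in WT (adjusted p = 0.00124) and 14.6-fold in *Ezr*-KOm (adjusted p = 3.55e-05), and both calls held without each library in turn.

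Most dendritic cell markers were higher in matIMs than in moMs, as were these 2 genes. Of 8 markers, 6 were higher and 0 lower in WT matIMs than in WT moMs, and the same counts held in *Ezr*-KOm. Between these populations 13.4% of all genes tested were higher and 11.4% lower in WT, and 12.5% and 10.7% in *Ezr*-KOm. From moMs to tnsIMs, where *Ccl5* was also called higher, fewer markers rose. There 3 of 8 were higher and 1 lower in WT, against 13% and 8.61% of all genes. In *Ezr*-KOm 4 were higher and 1 lower, against 9.23% and 5.04%. The lower marker was *Flt3* (-1.04 ± 0.32 in *Ezr*-KOm). The markers' summed level in WT was 77.6 to 119 CPM in moMs, 185 to 408 CPM in tnsIMs and 3235 to 4506 CPM in matIMs, with 0 of 8 at 0 in any group, and in *Ezr*-KOm 87.5 to 100.2, 244 to 374 and 4037 to 4375 CPM. *Ccr7* (1481 to 2019 CPM in WT matIMs), *Fscn1* (614 to 1019.5) and *Cd209a* (476 to 1193) carried most of it, whereas *Xcr1* and *Clec9a*, markers of cross-presenting dendritic cells, were at 3.08 to 4.25 and 3.41 to 4.44 CPM there. Of 11 markers of T and NK cells, which also make *Ccl5*, 2 were higher and 1 lower in matIMs than in moMs in each genotype, and their sum overlapped between WT moMs (47.7 to 74.4 CPM), WT tnsIMs (45.0 to 68.1 CPM) and WT matIMs (56.1 to 71.6 CPM). The 8 genes of macrophage identity summed to 26689.8 to 33139.5 CPM in WT moMs and 9896 to 10781 CPM in WT matIMs, with 5 of 8 lower and 0 higher, and in *Ezr*-KOm 6 of 8 were lower. The study's methods describe setting CD11c+ cells aside, with dendritic cells identified among them, and then gating CD11b+ cells. Whether dendritic cells or T cells were among the sorted cells was not tested. The part of these markers in the *Ccl5* and *Ccl8* differences was not tested.

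*Ccl3* and *Ccl4*, attractants of monocytes, T cells and NK cells, had their highest means in tnsIMs. *Ccl3* was at 952, 635 and 588 CPM in moMs, 1259, 1348 and 983 CPM in tnsIMs and 764, 623 and 423 CPM in matIMs of WT lungs. The *Ezr*-KOm values were 1068, 703 and 782 CPM in moMs, 1279.7, 1345 and 1070.2 CPM in tnsIMs and 712, 669 and 560.3 CPM in matIMs. Within each genotype the tnsIM libraries were above all moM and matIM libraries, while moMs and matIMs overlapped. From moMs to tnsIMs *Ccl3* rose by 0.72 ± 0.22 in WT (log2 ± SE, adjusted p = 0.0264), a call lost without WT moM replicate 2 (adjusted p = 0.108), WT moM replicate 3 (adjusted p = 0.135), WT tnsIM replicate 1 (adjusted p = 0.0821) or WT tnsIM replicate 2 (adjusted p = 0.0944). The difference in *Ezr*-KOm was 0.53 ± 0.22 (adjusted p = 0.126). Toward matIMs *Ccl3* fell from its tnsIM level 1.98-fold in WT (adjusted p = 0.00368) and 1.90-fold in *Ezr*-KOm (adjusted p = 0.00583), and both calls held in every setting tried. A stretch of 178 bases of *Ccl3* transcripts matched the opposite strand of the long non-coding transcript *Gm53692* at 97.8% identity, and the strand setting of the counting is not given in the sources used here.

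*Ccl4* was at 1524, 944 and 929.7 CPM in moMs, 2087, 1577 and 1204 CPM in tnsIMs and 1239, 944 and 655 CPM in matIMs of WT lungs. *Ezr*-KOm lungs gave 1967, 885 and 1269 CPM in moMs, 2365, 1782 and 1413 CPM in tnsIMs and 1290.3, 908 and 1067 CPM in matIMs. Replicate 1 was highest in each of the 6 groups, and the groups overlapped except for tnsIMs and matIMs in *Ezr*-KOm. The differences from tnsIMs to matIMs, -0.78 ± 0.30 in WT and -0.77 ± 0.30 in *Ezr*-KOm, had adjusted p = 0.0819 and 0.0873 without the replicate block.

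Markers of structural lung cells were highest in the same population as *Ccl3* and *Ccl4*. *Ccl12* and *Ccl24* also had their highest means in tnsIMs in both genotypes, and *Ccl2* and *Ccl7* did in WT. From WT moMs to WT tnsIMs 5 of 7 epithelial, 6 of 6 endothelial and 4 of 6 fibroblast markers were higher and 0 lower, and the counts in *Ezr*-KOm were the same. Of all genes tested, 13% were higher and 8.61% lower in WT, and 9.23% and 5.04% in *Ezr*-KOm. In WT the epithelial markers summed to 115 to 152 CPM in moMs, 2471 to 4082 CPM in tnsIMs and 536 to 576 CPM in matIMs, led by the surfactant genes *Sftpa1* and *Sftpc*. In the same order the endothelial sums were 67.2 to 78.9, 197 to 360.2 and 38.7 to 60.8 CPM, and the fibroblast sums 21.9 to 36.1, 79.5 to 99.6 and 13.04 to 26.0 CPM. The sort was on CD45, which epithelial cells, endothelial cells and fibroblasts lack, and then on CD11b. Whether cells of these types, or transcripts from them, passed it was not tested. The part of these transcripts in the chemokine levels of tnsIMs was not tested.

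*Ccl6* and *Ccl9*, 2 neighbouring chemokines of rodents that act through *Ccr1*, were highest in moMs and lowest in matIMs. *Ccl6* was at 2311, 1674 and 1666 CPM in moMs, 1452, 1384 and 907 CPM in tnsIMs and 897, 823 and 585 CPM in matIMs of WT lungs. Its *Ezr*-KOm values were 1809, 1605 and 1706 CPM in moMs, 1331, 1182 and 945 CPM in tnsIMs and 706, 683 and 658 CPM in matIMs. The 3 populations did not overlap in either genotype. *Ccl6* fell 2.45-fold from moMs to matIMs in WT (-1.29 ± 0.20, adjusted p = 7.43e-05) and 2.50-fold in *Ezr*-KOm (-1.32 ± 0.20, adjusted p = 5.96e-05), and these calls held in every setting.

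The single steps of *Ccl6* depended more on single libraries. Its difference from moMs to tnsIMs was -0.59 ± 0.19 in WT (adjusted p = 0.0354) and -0.57 ± 0.19 in *Ezr*-KOm (adjusted p = 0.0598). The WT call was lost without WT moM replicate 1 (adjusted p = 0.208), WT moM replicate 2 (adjusted p = 0.0622), WT moM replicate 3 (adjusted p = 0.0605), WT tnsIM replicate 2 (adjusted p = 0.0736) or WT tnsIM replicate 3 (adjusted p = 0.182). It was also lost with upper-quartile factors (adjusted p = 0.106), with the WT groups alone (adjusted p = 0.0807) and with genes of at least 10 counts in every library alone (adjusted p = 0.0687). The next step, to matIMs, was -0.70 ± 0.19 in WT (adjusted p = 0.0153), lost without WT matIM replicate 3 (adjusted p = 0.0839), WT tnsIM replicate 1 (adjusted p = 0.0885) or WT tnsIM replicate 2 (adjusted p = 0.0623). For *Ezr*-KOm it was -0.76 ± 0.19 (adjusted p = 0.00926), lost without *Ezr*-KOm tnsIM replicate 1 (adjusted p = 0.0562). A long non-coding gene on the opposite strand, *E230016K23Rik*, overlaps *Ccl6* and had 73 to 225 counts, against at least 15698 for *Ccl6*.

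*Ccl9* was at 905, 709 and 679.8 CPM in moMs, 641, 598 and 444 CPM in tnsIMs and 534, 566 and 358 CPM in matIMs of WT lungs. Its *Ezr*-KOm libraries held 801, 656 and 797 CPM in moMs, 673, 552 and 595 CPM in tnsIMs and 509.6, 521 and 489.7 CPM in matIMs. The moM libraries were above all matIM libraries in both genotypes, and tnsIMs overlapped with matIMs in WT. Its log2 difference was the smallest of the 6 genes lower in matIMs than in moMs. From moMs to matIMs *Ccl9* fell by 0.65 ± 0.18 on the log2 scale in WT (adjusted p = 0.0103), a call lost without WT matIM replicate 3 (adjusted p = 0.0611) or WT moM replicate 1 (adjusted p = 0.0627). *Ezr*-KOm showed a fall of 0.57 ± 0.18 (adjusted p = 0.0253), a call lost without *Ezr*-KOm matIM replicate 1 (adjusted p = 0.0625), *Ezr*-KOm matIM replicate 2 (adjusted p = 0.0568), *Ezr*-KOm matIM replicate 3 (adjusted p = 0.085), *Ezr*-KOm moM replicate 1 (adjusted p = 0.105) or *Ezr*-KOm moM replicate 3 (adjusted p = 0.0893). It was also lost with upper-quartile factors (adjusted p = 0.0612) and with library totals only (adjusted p = 0.0528). Stretches of up to 195 bases of *Ccl9* transcripts matched transcripts of 1357 other genes at 90% identity or more, so reads from that stretch could be placed at many sites.

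*Ccl24*, the eosinophil attractant that binds *Ccr3*, was the member that fell most toward matIMs. It was at 59.7, 77.5 and 29.4 CPM in moMs, 119, 89.9 and 34.4 CPM in tnsIMs and 22.2, 9.48 and 4.21 CPM in matIMs of WT lungs. Libraries from *Ezr*-KOm lungs had 51.5, 30.4 and 44.9 CPM in moMs, 63.6, 30.8 and 51.8 CPM in tnsIMs and 9.39, 4.61 and 6.25 CPM in matIMs. All matIM libraries were below all others, while moMs and tnsIMs overlapped in both genotypes. *Ccl24* fell from tnsIMs to matIMs 6.79-fold in WT (-2.76 ± 0.53, adjusted p = 0.000883) and 7.20-fold in *Ezr*-KOm (-2.85 ± 0.54, adjusted p = 0.000783). Against moMs it fell 4.66-fold in WT (adjusted p = 0.00357) and 6.26-fold in *Ezr*-KOm (adjusted p = 0.00108), and the 4 calls held in every setting.

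Set beside each other per kilobase, the make-up of the chemokine transcripts differed between moMs and matIMs. *Ccl2*, *Ccl7* and *Ccl12* made up 19.8%, 14.9% and 5.12% of the 10 genes' summed CPM per kb in WT moMs (means of 3 libraries) and 11.2%, 10.8% and 3.99% in WT matIMs. *Ccl5* made up 0.772% in WT moMs, 1.68% in WT tnsIMs and 11.98% in WT matIMs, with *Ezr*-KOm means of 0.966%, 2.30% and 15.4%. The share of *Ccl4* was 24.9%, 29.8% and 30.8% in the WT populations, and that of *Ccl6* 15.9%, 8.61% and 9.59%. These shares are a description with no test, and they depend on the gene lengths used.

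**Figure D3:**
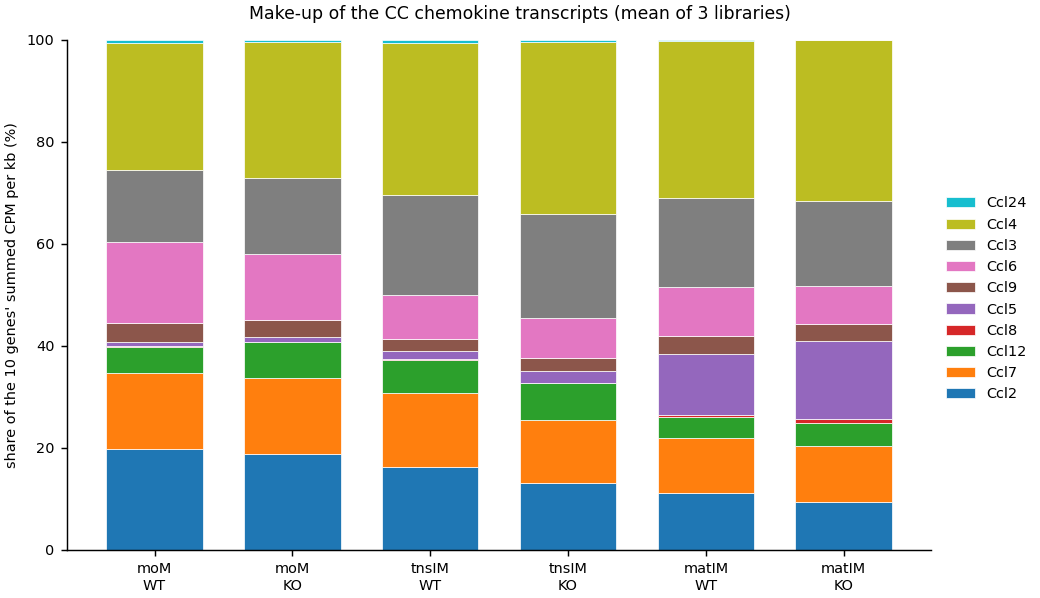
Stacked bars give the mean share (%) of each gene in the 10 genes' summed CPM per kb, for the 6 groups of 3 libraries. The *Ccl5* band widens from 0.772% in WT moMs to 11.98% in WT matIMs, while *Ccl4* is the widest band in every group.

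The comparison of *Ezr*-KOm with WT asked whether loss of ezrin in *Cx3cr1*-lineage cells changed these transcripts. By edgeR with adjustment over all genes, 0 of 10 members passed in moMs, tnsIMs and matIMs, against 0.171%, 0.164% and 0.152% of all genes. By the rule of the study (unadjusted p below 0.05 together with a log2 difference beyond 0.75 in either direction), 0 of 10 passed in each population, against 2.51%, 1.83% and 2.4%. DESeq2 also called 0 of 10 in each, and 55, 55 and 52 of all 15806 genes it tested. At an unadjusted p under 0.05 by edgeR 0 of 10 passed in each, against 3.74%, 3.24% and 3.84% of all genes, so these counts of 0 do not set the members apart from the rest. WT and *Ezr*-KOm ranges were separate for 0 of 10 genes in moMs (8.52% of all genes), 0 of 10 in tnsIMs (5.81%) and 1 of 10 in matIMs (10.1%), which was *Ccl8*. The median log2 difference of the 10 genes, moMs first and matIMs last, was 0.11, 0.077 and 0.15, beside 0.0022, 0.0020 and -0.0014 over all genes. Of the marker lists, 3, 1 and 2 of 6 fibroblast markers met the study's rule in the 3 populations, with sums of 21.9 to 36.1 CPM in WT moMs and 41.3 to 51.9 CPM in *Ezr*-KOm moMs.

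The member nearest to the threshold in moMs was *Ccl12*, with 345, 249.6 and 217 CPM in WT and 344, 478 and 375 CPM in *Ezr*-KOm. The ranges overlapped through WT replicate 1 alone, and the log2 difference was 0.56 ± 0.28 (95% interval -0.018 to 1.14, unadjusted p = 0.0566, adjusted p = 1). In matIMs *Ccl8* differed by 0.81 ± 0.47 (95% interval -0.18 to 1.80, unadjusted p = 0.105, adjusted p = 0.9999), from the values given above. With the replicate number as a block it was 0.87, with an unadjusted p = 0.0488, which meets the study's rule, and an adjusted p = 0.833. *Ccl5* was higher in the *Ezr*-KOm mean of each population, by 0.52 ± 0.41, 0.53 ± 0.41 and 0.53 ± 0.41, with overlapping libraries and unadjusted p = 0.22, 0.211 and 0.206. *Ccl24* was lower in each *Ezr*-KOm mean, by -0.39 ± 0.49, -0.73 ± 0.49 and -0.82 ± 0.52, also with overlap (unadjusted p = 0.433, 0.152 and 0.132). A shared direction over the populations is not made of independent observations. Libraries of the same number deviated together across the populations of a genotype (r = 0.091 to 0.397).

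The intervals, from the fit without the replicate block, show what size of difference these libraries could still hold under that fit. For *Ccl2* they ran from -0.37 to 0.53 in moMs, -0.77 to 0.13 in tnsIMs and -0.52 to 0.38 in matIMs on the log2 scale. For *Ccl9*, the gene with the narrowest intervals, they ran from -0.40 to 0.35, -0.26 to 0.48 and -0.31 to 0.43. For *Ccl24* and *Ccl8* they were wide, from -1.91 to 0.27 and -1.66 to 0.66 in matIMs and moMs, respectively. The genotype effect was also compared between populations. By edgeR, 0 of 10 members passed for tnsIMs against moMs, for matIMs against tnsIMs and for matIMs against moMs, and 0% of all genes did in each, with 0 by DESeq2 as well. At an unadjusted p under 0.05, 233, 183 and 268 of all genes passed (1.47%, 1.16% and 1.70%). Members with an unadjusted p under 0.05 numbered 0 of 10 in each of the 3, and the smallest was *Ccl8* for matIMs against moMs (difference 1.31 ± 0.73, unadjusted p = 0.0882).

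**Figure D4:**
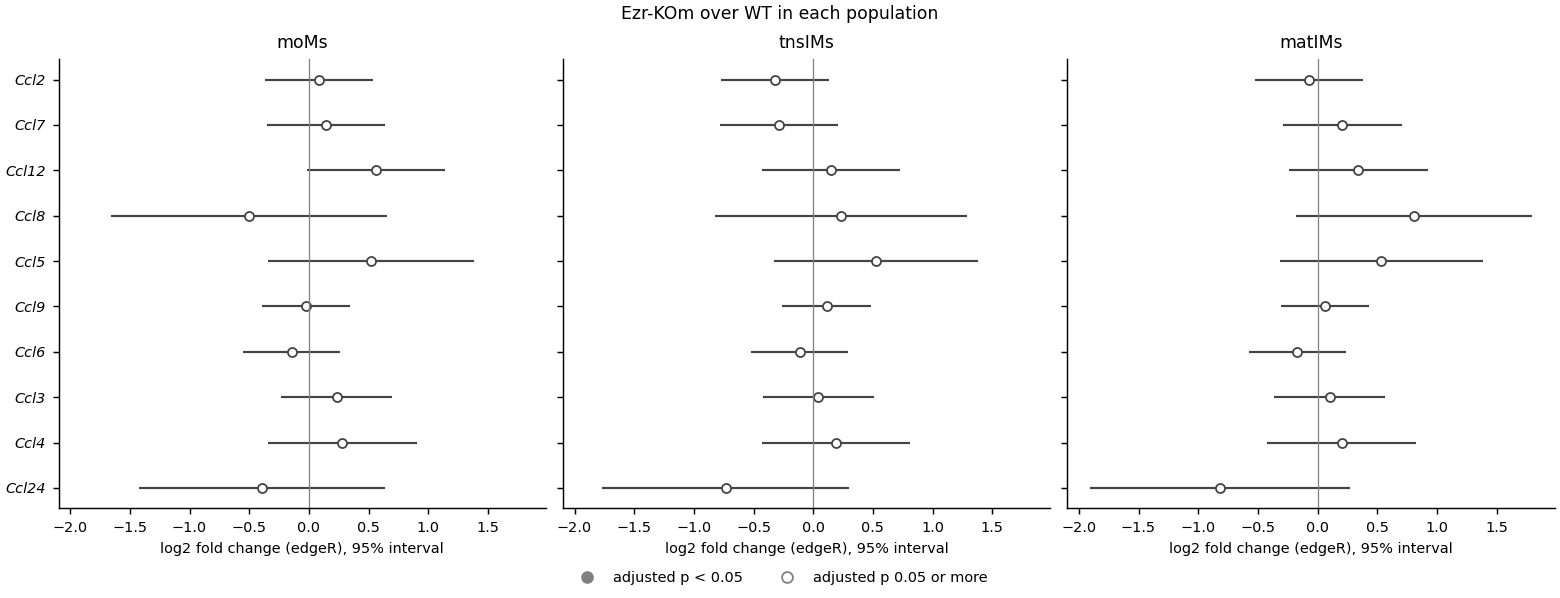
Log2 fold changes (edgeR) of *Ezr*-KOm over WT with 95% intervals for the 10 genes in moMs, tnsIMs and matIMs. Every point is open (adjusted p 0.05 or more) and every interval includes 0, with the widest intervals for *Ccl8* and *Ccl24*.

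Within groups the chemokines deviated together. After subtraction of the group means, the log2 CPM of *Ccl7* and *Ccl12* had a Pearson r of 0.97 over the 18 libraries, that of *Ccl2* and *Ccl7* 0.91, that of *Ccl2* and *Ccl12* 0.87, that of *Ccl6* and *Ccl9* 0.89 and that of *Ccl3* and *Ccl4* 0.86. Of the 45 pairs 44 were above 0, and the exception was *Ccl5* with *Ccl7* (-0.065). Without that subtraction, with the population differences included, 29 pairs were above 0 and 16 below, the latter all with *Ccl5* or *Ccl8* on 1 side. All 10 values of a library share its cells, depth and handling, so these coefficients describe the libraries and carry no test.

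The libraries with the lowest chemokine levels carried the same number in the WT groups. Of the 30 combinations of gene and WT group, WT replicate 3 was lowest in 27, against 30.8% of all genes tested, and replicate 1 was highest in 40 of the 60 combinations over both genotypes, against 32.1%. In WT replicate 3 the median deviation of the 10 genes from the group mean on the log2 scale was -0.22 for moMs, -0.46 for tnsIMs and -0.43 for matIMs. Over all genes tested the median deviation was 0.061 in this tnsIM library and 0.025 in this matIM library. In WT matIM replicate 3, 10 of 10 genes were below the group mean, and in WT moM replicate 1 and *Ezr*-KOm tnsIM replicate 1, 10 of 10 were above it. The *Ezr*-KOm matIM libraries were closer to each other, with median deviations from -0.081 to 0.018. What the libraries of 1 number share is not given in the sources used here, and the part of it in the genotype comparisons was not tested.

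**Figure D5:**
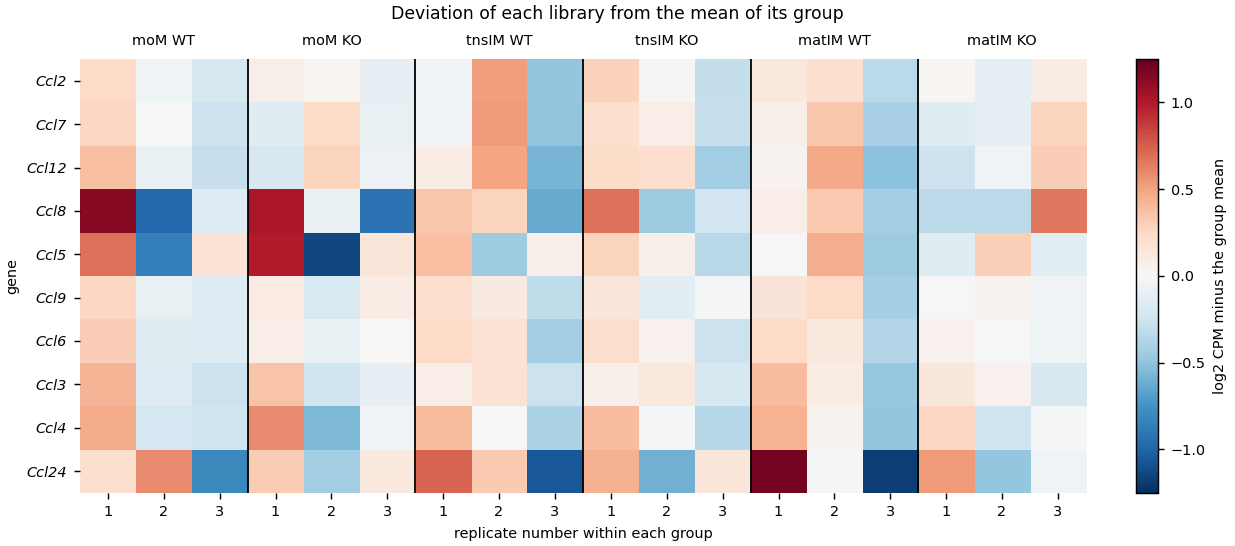
Colours show, for each gene (rows) and library (columns, by group and replicate number), log2 CPM minus the mean of its group of 3 libraries. The WT replicate 3 columns are mostly blue (medians of -0.22, -0.46 and -0.43), and replicate 1 of WT moMs and of *Ezr*-KOm tnsIMs is above the group mean for 10 of 10 genes.

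Of the other CC chemokines, 9 of 13 listed genes were in the table and 7 were tested. From WT moMs to WT tnsIMs 4 were higher and 0 lower, from WT tnsIMs to WT matIMs 2 were higher and 2 lower, and from WT moMs to WT matIMs 3 were higher and 0 lower. The *Ezr*-KOm counts were 3 and 0, 2 and 1, and 2 and 0. Of all genes tested, the shares higher and lower in WT were 13% and 8.61%, 8.32% and 10.2%, and 13.4% and 11.4%. In *Ezr*-KOm they were 9.23% and 5.04%, 8.37% and 9.85%, and 12.5% and 10.7%. *Ccl22* and *Ccl17*, both ligands of *Ccr4*, rose at each step. *Ccl22* had means of 6.15, 134 and 2633 CPM along the series moM, tnsIM and matIM in WT, and differed between matIMs and moMs by 8.74 ± 0.29 in WT and 8.27 ± 0.28 in *Ezr*-KOm (adjusted p = 6.03e-13 and 1.06e-12). *Ccl17* had means of 18.5, 217 and 1563 CPM and differed by 6.4 ± 0.52 and 5.58 ± 0.50 (adjusted p = 3.93e-08 and 1.24e-07). *Ccl20* was called higher in tnsIMs and lower in matIMs in both genotypes, at means of 0.179, 3.32 and 0.315 CPM in WT. Most dendritic cell markers, given above, were also higher in matIMs than in moMs, and the part of these markers in the levels of *Ccl22* and *Ccl17* was not tested. In the genotype comparisons 0 of 7 passed, by adjusted p or by the study's rule.

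Of 15 CC chemokine receptors 12 were tested, and in WT 5 were higher and 2 lower in tnsIMs than in moMs, 3 higher and 4 lower in matIMs than in tnsIMs, and 3 higher and 3 lower in matIMs than in moMs. In the other genotype the counts were 3 and 2, 3 and 4, and 4 and 4. The shares of all genes in these comparisons are those given with the other CC chemokines. *Ccr7*, the receptor that guides cells to lymph nodes and 1 of the dendritic cell markers, had means of 13.5 CPM in WT moMs and 1815 CPM in WT matIMs (7.08 ± 0.31, adjusted p = 1.62e-11). *Ccr1*, a receptor for *Ccl3*, *Ccl5*, *Ccl6* and *Ccl9*, was lower in matIMs than in moMs, at 279 against 691 CPM (-1.31 ± 0.17, adjusted p = 1.57e-05). *Ccr2*, the receptor for *Ccl2*, *Ccl7* and *Ccl12*, was lower in *Ezr*-KOm matIMs than in *Ezr*-KOm moMs, at 663 against 1526 CPM (-1.20 ± 0.18, adjusted p = 6.60e-05), and its WT means were 707 and 1574 CPM. Adjusted over all genes, 0 of 12 differed between the genotypes, and by the study's rule 1 did in moMs, 1 in tnsIMs and 0 in matIMs. Of all genes tested, 2.51%, 1.83% and 2.4% met that rule.

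Among 15 genes that sense LPS or relay its signal, drive chemokine transcription, destabilise chemokine mRNA or restrain NF-kappaB (*Nfkbia* and *Tnfaip3*), 1 was higher and 5 lower in WT matIMs than in WT moMs, and 1 was higher and 4 lower in *Ezr*-KOm. *Cd14* and *Tlr4*, which bind and signal LPS, fell in matIMs by 1.33 ± 0.19 and 1.58 ± 0.28 on the log2 scale in WT (adjusted p = 4.18e-05 and 0.000315). *Myd88*, the adaptor of *Tlr4*, fell by 0.67 ± 0.12 (adjusted p = 0.00032), and *Nfkb1*, a subunit of NF-kappaB, rose by 0.63 ± 0.14 (adjusted p = 0.00195). From WT moMs to WT tnsIMs 0 were higher and 3 lower (*Myd88*, *Ly96* and *Rela*), and from WT tnsIMs to WT matIMs 1 was higher and 2 lower. The shares of all genes in these comparisons, given with the other CC chemokines, were 13% and 8.61% for the first and 8.32% and 10.2% for the second. From moMs to matIMs they were 13.4% and 11.4% in WT and 12.5% and 10.7% in *Ezr*-KOm. In the genotype comparisons 0 of 15 passed, by adjusted p or by the study's rule.

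The genes whose log2 CPM followed a member most closely over the 18 libraries were found for each member among all genes tested. For *Ccl2* they were *Cd14* (r = 0.980), *Ctsb* (r = 0.977) and *Ninj1* (r = 0.969), *Cd14* being the LPS co-receptor and *Ctsb* a lysosomal protease. For *Ccl7* they were *Ccl2* (r = 0.951), *Ccl12* (r = 0.943) and *Ctsb* (r = 0.940), and for *Ccl12* *Lgmn* (r = 0.957), *Ccl7* (r = 0.943) and *Saa1* (r = 0.910). For *Ccl3* they were *Gm13889* (r = 0.943), *Col3a1* (r = 0.919) and *Serpina3n* (r = 0.917). For *Ccl4* they were *Ccl3* (r = 0.905), *Fth1* (r = 0.883) and *Bri3* (r = 0.880). *Ccl5* was closest to *Bcl2* (r = 0.978), *Klrb1b* (r = 0.966) and *Ccnd2* (r = 0.958), of which *Bcl2* blocks apoptosis and *Ccnd2* is a cyclin. *Ccl8* was closest to *Tnip3* (r = 0.953), *Gm10752* (r = 0.945) and *Ikzf4* (r = 0.935), *Ccl6* to *Tnfaip6* (r = 0.957), *Glul* (r = 0.956) and *Arhgap24* (r = 0.956), *Ccl9* to *Ypel5* (r = 0.925), *Ccl6* (r = 0.904) and *Fabp7* (r = 0.896) and *Ccl24* to *Ddx28* (r = 0.941), *Rab20* (r = 0.931) and *Prdx5* (r = 0.930). The libraries fall into populations, so these coefficients include the differences between populations.

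The remaining marker lists gave the following counts in WT matIMs against WT moMs, where 13.4% of all genes tested were higher and 11.4% lower. Higher were 5 of 7 epithelial markers (0 lower), 7 of 7 alveolar macrophage markers, 5 of 5 B cell markers, 2 of 2 tested eosinophil markers, 4 of 9 neutrophil markers (1 lower), 1 of 4 tested mast cell and basophil markers (1 lower), 5 of 8 markers of resident interstitial macrophages (1 lower) and 3 of 4 genes of the sort gate (1 lower). Lower were 4 of 6 endothelial and 2 of 6 fibroblast markers (0 higher). Summed levels in WT moMs and WT matIMs were 49.1 to 70.3 and 169 to 304 CPM for alveolar macrophages, 8.77 to 13.2 and 147 to 219.8 CPM for B cells, 361 to 520.3 and 168 to 199.7 CPM for neutrophils, and 0.569 to 1.57 and 2.94 to 19.5 CPM for eosinophils, whose attractant is *Ccl24*. *Xist*, a marker of sex, was at 25.6 to 109.9 CPM in all 18 libraries and differed in 0 comparisons. Between the genotypes 0 genes of any marker list passed the adjusted test. By the study's rule 2 of 8 markers of resident interstitial macrophages passed in moMs and 2 in tnsIMs, and 1 eosinophil marker and 1 mast cell and basophil marker in tnsIMs. Of all genes tested, 2.51% met that rule in moMs and 1.83% in tnsIMs.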

How the data were processed

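The 18 libraries (SMART-Seq v4 cDNA, Nextera XT, paired NovaSeq reads) held 16512783 to 48460995 counts, which limits the precision of low genes such as *Ccl8*. Per the study's methods and the processing notes, the authors checked reads with FastQC, aligned them with STAR 2.7.9a to GRCm39 with Gencode annotation and deposited raw counts per gene from its gene-count mode. The strand column used is not given in the sources used here. Totals, CPM and tests were computed here from these counts.

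Groups came from the labels, with 3 libraries for each of 6 groups. That they are separate mice is not stated per library, so p-values measure the spread between these samples. No libraries agreed within sampling noise. The main test was edgeR 4.0.16 (R 4.3.3) with TMM factors, filterByExpr with a minimum count of 10 (15811 of 21254 genes kept), a single model over the 6 groups, the quasi-likelihood F-test and Benjamini-Hochberg adjustment over all genes tested, with a threshold of 0.05. The study's rule for genotypes (unadjusted p under 0.05, absolute log2 difference over 0.75) was applied to the same fit. Other settings were DESeq2 1.42.0, upper-quartile factors, library totals only, no filter, at least 10 counts in every library, the groups of a comparison's population or genotype alone, the replicate number as a block, that number within genotype as a block, and each library left out. The fit was tested on simulated counts.

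Replicate numbers come from the labels, which do not say what they mark. Deviations of same-number libraries correlated over 0.1 in every pair for the genotype comparisons (0.10 to 0.32) and for tnsIMs with moMs and with matIMs, and not in every pair for matIMs with moMs (lowest 0.091). Different numbers reached at most 0.051.

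Levels between genes used merged exon length. Similar genes were the 3 with the highest Pearson r of log2 CPM (prior count 2). Of the other lists, counts and up to 4 genes of smallest p were taken, and single marker genes given by level were chosen after their values were seen. The 10 members, the lists of other chemokines, receptors, regulators and markers, and the tests were chosen with earlier results of these data known, and no list supports a direction independently. Promoter sequences and gene names beyond the table came from RefSeq (GRCm38.p6). Protein sequences were not used here.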

Additional observations from a re-analysis of the deposited data

How the results depend on the processing

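The members' results were recomputed under 8 other settings of the fit and without each of the 18 libraries. For the calls between populations the settings other than left-out libraries changed 5 to not called and 21 to called, and left-out libraries changed 36 to not called and 5 to called. The counts of members called from tnsIMs to matIMs and from moMs to matIMs stayed within 1.5 times their main values, and every member called in a main fit whose loss is not named in the report kept its call in each setting and without each library.

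From moMs to tnsIMs the WT count of 3 was 5 with the replicate number as a block, 6 with the number within genotype as a block, and 0 to 3 without single libraries, with 0 without moM replicate 2 or 3 and 1 without tnsIM replicate 1 or 2. The *Ezr*-KOm count of 1 was 4 and 5 with these blocks, 2 with DESeq2, 2 with library totals only, 2 with the *Ezr*-KOm groups alone and 0 to 2 without single libraries. Calls over all genes rose with the blocks too, from 3411 to 4572 and 4747 in WT and from 2257 to 3185 and 3403 in *Ezr*-KOm, where DESeq2 called 2769. Under the study's rule the count of 0 for the genotypes was 0 to 1 in each population without single libraries, with 1 in moMs without WT replicate 1 or *Ezr*-KOm replicate 2, in tnsIMs without WT replicate 3 and in matIMs without WT replicate 3, and in matIMs it was 1 with the replicate block and 1 with the matIM groups alone. The pairing by replicate number ended no main call of a member, and where it added one the value stands beside the result. The block within genotype also called *Ccl12* from moMs to tnsIMs in WT (adjusted p = 0.0422), and in *Ezr*-KOm *Ccl4* from moMs to tnsIMs (0.0318) and *Ccl3* from moMs to matIMs (0.0479). The cause of these changes was not tested.

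Directions turned only for differences that did not pass the test. Without single libraries the *Ezr*-KOm minus WT difference (log2) ranged in moMs over *Ccl2* -0.013 to 0.21, *Ccl8* -1.22 to 0.27, *Ccl5* -0.094 to 0.92, *Ccl9* -0.10 to 0.11, *Ccl6* -0.22 to 0.027 and *Ccl4* -0.088 to 0.55, in tnsIMs over *Ccl7* -0.50 to 0.021, *Ccl12* -0.091 to 0.42, *Ccl8* -0.22 to 0.46, *Ccl9* -0.036 to 0.25, *Ccl6* -0.30 to 0.041, *Ccl3* -0.086 to 0.16 and *Ccl4* -0.042 to 0.45 and in matIMs over *Ccl2* -0.22 to 0.041, *Ccl9* -0.12 to 0.19, *Ccl3* -0.11 to 0.32, *Ccl4* -0.0093 to 0.46 and *Ccl24* -1.24 to 0.0045. From moMs to tnsIMs the range was -0.26 to 0.25 for *Ccl2* in WT, which was -0.0044 with the replicate block and -0.031 with the block within genotype, and -0.25 to 0.026 for *Ccl7* and -0.053 to 0.45 for *Ccl24* in *Ezr*-KOm. From moMs to matIMs it was -0.60 to 0.026 for *Ccl4* in *Ezr*-KOm.

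With the longest transcript in place of merged exons, the WT moM level of *Ccl5* was 79.2 in place of 51.5 CPM per kb and that of *Ccl6* 1308 in place of 1036 CPM per kb. The order of the genes stayed the same in WT moMs. In WT matIMs *Ccl5* then stood above *Ccl3*, and *Ccl6* above *Ccl2* and *Ccl7*. With 3 libraries a group and 13 to 65 counts of *Ccl8* in moMs, small differences of this gene were not detectable there.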
